A study of Mus musculus with 96 samples.

Results

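The response of RAW 264.7 cells, a mouse macrophage-like cell line, to lipopolysaccharide (LPS) given together with interferon gamma (IFNG) for 4 h was measured on 6 of the 96 two-colour arrays of the series. These are the arrays whose labels name both ligands and 4 h. They form 3 sets, and each set was hybridised in 2 dye orders. The treated cells received 100 ng LPS with 100 pM LPS-binding protein, for which the labels give no volume, and 5 nM IFNG. RNA of untreated RAW 264.7 cells, labelled with the same time as the treated cells, was in the other channel of every array. Each value below is a log2 ratio of treated to untreated RNA, turned to that direction by the channel labels and averaged over the 2 dye orders of a set, so that a response is the mean of 3 set values ± SD. The study as a whole exposed these cells to single ligands and to ligand pairs over a time course. Set against the joint treatment here are LPS alone at 4 h, IFNG alone at 4 h and the joint treatment at 2 h, with the same doses and 6 arrays each.

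LPS, a component of the outer membrane of Gram-negative bacteria, is sensed by Toll-like receptor 4, which activates NF-kB, MAP kinases and, through interferon regulatory factors, the gene for interferon beta. IFNG, made by T cells and natural killer cells, acts through the kinases JAK1 and JAK2 on genes that carry interferon gamma activation sites. The combination is the classical stimulus for a microbicidal and antigen-presenting macrophage state, with induction of nitric oxide synthase, guanylate-binding proteins and inflammatory cytokines.

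Between 14402 and 14990 of the 16281 probes had a value on each of the 6 arrays. An exact 0 was read as no measurement. As deposited, the 2 dye orders of a set correlated at -0.662, -0.424 and -0.784 across all probes with values in sets 1, 2 and 3, as opposite dye orders do. After turning, the set values correlated with each other at 0.826 to 0.892 across the tested genes, which are not independent replicates. Genes with a known direction were read first. Irf1, an interferon-induced transcription factor, stood at 3.47, 3.15 and 3.72 in sets 1, 2 and 3, and Socs1, which shuts off JAK kinases, at 3.47, 3.17 and 3.99. Tnf stood at 2.35, 2.83 and 3.93. All 6 arrays were above 0 for each of these genes and for Nos2, Il1b and Ptgs2. Cxcl9 was above 0 on all 5 arrays with a value. Cxcl10, a chemokine gene induced by interferons, had a value on 1 array only (5.03) and was not tested. Of the 8 macrophage markers tested, 6 rose and 1 fell, within -1.29 to 1.73, against 15.2% and 18.8% of all features tested. Lyz2, a defining macrophage marker, was listed at exactly 0 on all 6 arrays. None of the 20 tested markers of T cells, B cells, neutrophils, fibroblasts and epithelial cells passed the test, and all lay between -0.15 and 0.29. A ratio gives no level, so these values show only that such markers did not change with treatment beyond the spread of the sets.

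The 11593 features tested, called genes below, comprise 9755 genes with a symbol and 1838 probes that have none. Nothing in the labels states whether each set came from its own culture. The p-values therefore rest on set-to-set variation that could be technical. It was estimated jointly from the 16 treatment groups of the series, some of which received 2-methyl-thio-ATP alone or with LPS. The fit took the 48 set values as independent, although same-numbered sets of the groups compared deviated together (correlations of 0.258 to 0.696). Its 32 residual degrees of freedom are therefore overstated, and very small p-values of a response should not be read literally. A gene whose own sets differ more than the joint estimate is tested too leniently. Il1a is such a gene: its sets stood at 1.92, 1.22 and 4.49 (SD 1.72), and it was tested with a standard error of 0.28. Whether treatments share untreated RNA of the same set is not given in the labels.

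Joint treatment for 4 h raised 1757 genes (15.2% of those tested) and lowered 2180 (18.8%), at an adjusted p under 0.05 from limma with Benjamini-Hochberg adjustment. Falls were more numerous and smaller. Of the risen genes 531 passed 2-fold and 72 passed 8-fold, whereas 247 of the fallen genes passed 2-fold and 1 passed 8-fold. At the same threshold, 490 of the risen genes also rose with each ligand alone, 664 with LPS only, 148 with IFNG only and 455 with neither. For the fallen genes the matching counts of falls were 537, 976, 89 and 578. Among called genes with a value on all 6 arrays, 1316 of 1739 rises and 1616 of 2146 falls had the same sign on all 6. The median response over all tested genes was -0.009, and the median standard error was 0.112. The shares of 15.2% and 18.8% are the background for the counts of risen and fallen list members below. Lists and members were chosen with earlier results of these data known. A list count above these shares is therefore a description and no separate support. The 15 largest rises are given for named genes with a value and the same sign on all 6 arrays.

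Iigp1, an immunity-related GTPase that attacks the vacuoles of intracellular parasites, led these 15. Cxcl9, with 5 arrays, averaged 5.77 and is described with the chemokines. Iigp1 stood at 5.70, 5.45 and 5.88 in sets 1, 2 and 3, a mean of 5.68 ± 0.22 or 51.2-fold (adjusted p = 1.18e-22). Tgtp1, of the same family, stood at 5.70, 5.47 and 5.70, and Gbp3, a guanylate-binding protein, at 5.79, 5.33 and 5.66. The 3 genes varied little between sets. Cd40, the co-stimulatory receptor that takes signals from helper T cells, stood at 5.70, 5.01 and 5.62. The acute-phase gene Saa3 stood at 5.24, 5.24 and 5.37, and the cytokine gene Il6 at 5.18, 4.54 and 5.71. Set 2 was lowest for Cd40 and Il6, and every set of all 3 was above 4. F3, which encodes tissue factor, the starter of coagulation, stood at 4.76, 4.38 and 5.89. Procr, the endothelial protein C receptor of the anticoagulant pathway, stood at 4.28, 4.39 and 3.82. A gene that starts coagulation and a gene of its restraint were thus both among the 15. The list also held the antiviral genes Ifit2 (5.00 ± 0.049), Cmpk2 (4.97 ± 0.43) and Ifi204 (4.38 ± 0.35), the guanylate-binding protein Gbp8 (4.91 ± 0.38) and the surface protein gene Ly6i (4.22 ± 0.11). Il1b, the interleukin 1 beta gene, reached 4.66 ± 0.60, and Ptgs2, the inducible cyclooxygenase that makes prostaglandins, 4.55 ± 1.06. Ptgs2 was the most variable of the 15, with 4.64, 3.45 and 5.57 in sets 1, 2 and 3. The 2 probes of Tgtp1 (5.03 and 6.21) and of Gbp3 (5.04 and 6.14) differed in size and not in direction.

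**Figure D1:**
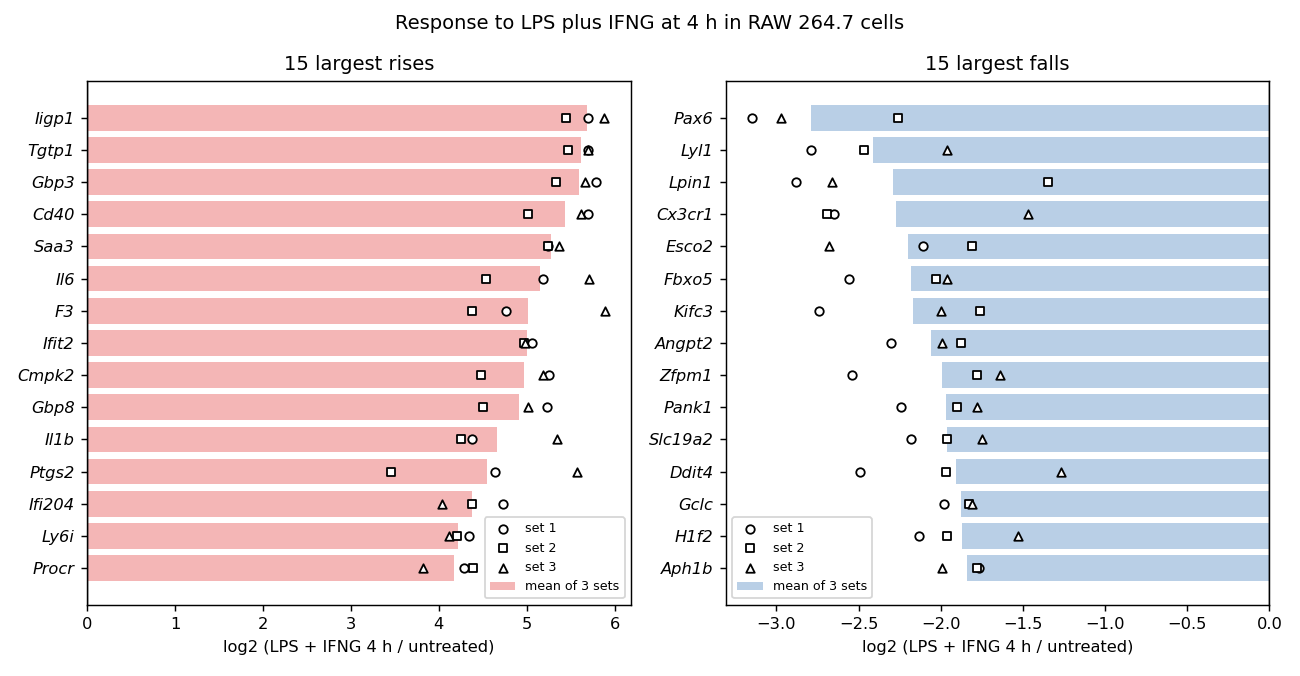
Log2 ratio of LPS plus IFNG at 4 h to untreated cells for the 15 largest rises (left) and the 15 largest falls (right), with a bar for the mean and 1 symbol per set. The rises run from 4.17 to 5.68 and the falls from -1.84 to -2.79. All 3 sets lie on the same side of 0 for every gene, which the choice of genes with 1 sign on all 6 arrays required.

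Promoter sequences are shown for 6 of the strongly risen genes because interferon regulatory factors and NF-kB, which the 2 ligands activate, bind short elements close to the start of such genes. The windows hold the 250 bases before the RefSeq transcript start on the gene's own strand (GRCm38.p6). Capitals mark exact matches, on either strand, to the interferon gamma activation site core TTCNNNGAA, the interferon response element core GAAANNGAA or the kappa B core GGNNTTTCC. Each window shown holds a match, so the 6 do not represent the risen genes, and Cxcl9 and Irf1 are not among the 15 largest rises. Of those 15, Cmpk2, Il1b, Procr and Ptgs2 had windows without any match, and F3 and Ifit2 had a match and are not shown. The windows of Tnf and Stat3 had none.
Tgtp1: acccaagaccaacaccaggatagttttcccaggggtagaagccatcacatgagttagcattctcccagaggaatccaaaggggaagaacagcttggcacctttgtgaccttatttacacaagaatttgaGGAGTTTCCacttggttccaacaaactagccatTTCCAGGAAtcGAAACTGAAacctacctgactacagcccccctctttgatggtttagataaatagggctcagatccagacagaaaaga
Cxcl9: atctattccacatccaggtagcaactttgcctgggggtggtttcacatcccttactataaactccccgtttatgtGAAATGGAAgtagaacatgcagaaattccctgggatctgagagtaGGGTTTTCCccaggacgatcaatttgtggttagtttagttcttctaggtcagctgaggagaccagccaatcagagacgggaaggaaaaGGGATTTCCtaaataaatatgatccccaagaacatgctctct
Gbp3: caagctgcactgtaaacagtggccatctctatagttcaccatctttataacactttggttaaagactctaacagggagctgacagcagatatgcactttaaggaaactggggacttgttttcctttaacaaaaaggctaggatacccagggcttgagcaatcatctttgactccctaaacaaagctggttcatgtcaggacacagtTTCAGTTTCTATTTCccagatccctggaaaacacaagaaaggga
Irf1: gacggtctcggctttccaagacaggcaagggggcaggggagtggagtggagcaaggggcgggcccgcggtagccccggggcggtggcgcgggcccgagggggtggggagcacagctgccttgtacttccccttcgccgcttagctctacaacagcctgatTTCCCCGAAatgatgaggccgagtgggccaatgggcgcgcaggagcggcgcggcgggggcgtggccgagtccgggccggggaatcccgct
Il6: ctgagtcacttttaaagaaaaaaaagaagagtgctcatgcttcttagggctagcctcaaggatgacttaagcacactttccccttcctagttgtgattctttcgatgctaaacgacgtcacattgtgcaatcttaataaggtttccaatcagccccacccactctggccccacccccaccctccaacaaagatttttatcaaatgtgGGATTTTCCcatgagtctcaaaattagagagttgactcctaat
Saa3: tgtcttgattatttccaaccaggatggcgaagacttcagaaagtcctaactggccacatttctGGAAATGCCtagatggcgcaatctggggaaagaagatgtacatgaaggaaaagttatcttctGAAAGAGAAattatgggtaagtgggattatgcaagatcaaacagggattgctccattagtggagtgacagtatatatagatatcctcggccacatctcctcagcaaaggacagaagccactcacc
The Tgtp1 window (chr11:48992247-48992496, minus strand) holds all 3 kinds of match. Its kappa B core begins 121 bases before the start, its interferon gamma activation site core 88 bases and its interferon response element core 77 bases before it. In the Cxcl9 window (chr5:92328080-92328329, minus strand) an interferon response element core begins at 175 bases and kappa B cores at 130 and 42 bases before the start. The Gbp3 window (chr3:142559794-142560043, plus strand) has 2 overlapping interferon response element cores that begin at 44 and 38 bases, and a second Gbp3 start in the table has no match. The Irf1 window (chr11:53769764-53770013, plus strand) has an interferon gamma activation site core at 90 bases, and its second start has none. The Il6 window (chr5:30012864-30013113, plus strand) has a kappa B core at 43 bases, and the Saa3 window (chr7:46715677-46715926, minus strand) a kappa B core at 187 bases and an interferon response element core at 125 bases. The promoter table held 12 windows of 10 of the 15 largest rises, counted over 300 bases (250 before and 50 after the start). The interferon gamma activation site core was in 2 of these 12 (16.7%, against 8.3% of all 32851 windows), the interferon response element core in 3 (25%, against 8.56%) and the kappa B core in 4 (33.3%, against 5.82%). Of 13 windows of 11 of the 15 largest falls, 0, 0 and 1 held these matches. A match of letters is no evidence of binding, and these shares are descriptions of few windows.

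The guanylate-binding and immunity-related GTPases, which act on the membranes around intracellular microbes, rose in all 7 tested members, with a median of 4.91. Beside the 4 members named above, Igtp stood at 4.05, 3.71 and 4.38 and Gbp4 at 2.89, 2.20 and 1.81 in sets 1, 2 and 3, and Irgm2 at 3.36 and 4.07 in the 2 sets with a value. The antiviral interferon-stimulated genes rose in 14 of 15 tested members (median 2.99). Zbp1, a sensor of nucleic acids that can start necroptosis, averaged 4.07 ± 0.51. The ubiquitin-like modifier Isg15 averaged 4.00 ± 0.31, the RNA-binding protein Ifit1 3.77 ± 0.37 and the dynamin-like GTPase Mx1 3.71 ± 0.25. Mx1 rests on 2 probes at 2.74 and 4.69. Further down the list were Oasl2 (3.10 ± 0.31), Mx2 (2.99 ± 0.25), the deoxynucleotide hydrolase gene Samhd1 (2.60 ± 0.077) and the RNA-activated kinase Eif2ak2 (1.93 ± 0.10). The exonuclease gene Isg20 did not pass the test (0.15 ± 0.046). Usp18, Gbp2b and Adar had a value above 0 on all 6 arrays and were not tested, because other groups of the series lacked values.

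Chemokine genes rose in 7 of 11 tested members and none fell (median 1.59). Cxcl9, which attracts T cells through CXCR3, showed the largest response of the list at 5.57 and 5.96 in sets 1 and 3, with no set value in set 2. Ccl12, a monocyte attractant, stood at 3.86, 3.89 and 4.21, and Ccl4 (MIP-1 beta) at 3.05, 2.54 and 3.44. The membrane-bound chemokine gene Cxcl16 stood at 3.04, 2.67 and 2.47. Ccl7 averaged 3.50 ± 0.18, but its 3 probes ran from 0.3 to 5.15, and Ccl22 averaged 1.59 ± 0.73 over probes from 0.03 to 2.66. Ccl5 rose by 0.44 ± 0.27, and missed the threshold without set 3 (0.29, adjusted p = 0.0544). It also missed it on arrays with treated RNA in Cy5 (0.42, adjusted p = 0.069). Cxcl1, Ccl17, Ccl9 and Cxcl14 lay between -0.43 and 0.10 and did not pass the test. Cxcl11 had values on 4 arrays, between 4.12 and 5.94, and was not tested.

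Cytokine genes rose in 15 of 21 tested members and fell in 1 (median 1.01). Ifnb1, the interferon beta gene, stood at 3.67, 2.63 and 4.85 in sets 1, 2 and 3. Il15, which sustains natural killer cells, stood at 3.94, 3.46 and 3.66, and Il10, which restrains inflammation, at 3.91, 3.29 and 3.55. Il10 therefore rose together with the inflammatory cytokines. Csf3, the granulocyte growth factor gene, averaged 3.22 ± 1.18 with 4.58 in set 3 against 2.66 and 2.43 in sets 1 and 2. Tnf averaged 3.04 ± 0.81 (adjusted p = 1.16e-10), and Il18, whose product needs caspase 1 for release, 2.35 ± 0.52. Smaller rises were those of Csf1 (1.25 ± 0.29), Ebi3 (1.01 ± 0.03) and Tgfb1 (0.80 ± 0.18). The 2 subunit genes of interleukin 12 did not pass the test, with Il12b at 0.09 ± 0.36 and Il12a at -0.12 ± 0.085. Csf2 (0.26 ± 0.41) did not pass it either. The growth factor gene Igf1 fell by 0.59 ± 0.097 and was the single fall on the list.

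Genes for nitric oxide, itaconate, prostaglandin and oxidant production rose in 9 of 12 tested members and fell in none (median 1.15). Nos2, the inducible nitric oxide synthase, stood at 3.47, 3.52 and 4.02 in sets 1, 2 and 3 (adjusted p = 9.42e-23). Enzymes and carriers that supply it rose as well. Ass1, which remakes arginine from citrulline, stood at 2.15, 2.43 and 2.32, and Slc7a2, an arginine transporter, at 1.75, 2.38 and 1.32. Gch1, the first enzyme of the cofactor tetrahydrobiopterin, stood at 1.47, 1.80 and 1.61. The sets did not overlap 0 for any of these genes. The superoxide dismutase Sod2 averaged 2.32 ± 0.073 over 2 sets, and Ido1, which degrades tryptophan, 0.60 ± 0.058. Arg1, an arginase that competes with Nos2 for arginine, did not pass the test (0.05 ± 0.28), while Arg2 rose by 0.68 ± 0.19. The Arg2 call was lost on arrays with treated RNA in Cy5 (0.39, adjusted p = 0.0642). Acod1, which makes itaconate, had no value on any of the 6 arrays.

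Of the interferon signalling genes 16 of 24 rose and 1 fell (median 0.77). Jak2, a kinase of the IFNG receptor, stood at 3.98, 3.81 and 3.35. Irf8, a transcription factor of the macrophage lineage, stood at 3.03, 3.16 and 3.59, and Stat2, which joins the factor downstream of type I interferon, at 2.84, 2.70 and 2.45. The negative regulators rose too. Beside Socs1, Cish averaged 2.57 ± 0.39 and the JAK phosphatase gene Ptpn2 1.01 ± 0.11. Stat3 averaged 2.07 ± 0.098, and Irf7, which amplifies interferon production, 1.82 ± 0.25. Socs3 (0.13 ± 0.11), Irf3 (0.07 ± 0.13) and Ifngr2 (-0.08 ± 0.31) did not pass the test. Ifngr1, the ligand-binding chain of the IFNG receptor, fell to -0.60, -0.85 and -0.85 in sets 1, 2 and 3 and was the only fall among the 24.

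Of the NF-kB and Toll-like receptor genes 13 of 19 rose and 2 fell (median 1.16). Genes of the IkB family and the feedback gene Tnfaip3 stood at the top. Nfkbiz, an atypical IkB protein needed for Il6 transcription, stood at 3.35, 3.60 and 4.04, the inhibitor Nfkbie at 2.85, 2.23 and 2.93, and the ubiquitin-editing enzyme gene Tnfaip3 at 2.38, 2.19 and 2.52. The subunits Nfkb2, Relb, Rel and Rela rose by 1.72 ± 0.45, 1.47 ± 0.21, 1.31 ± 0.18 and 0.39 ± 0.032. Rela missed the threshold on arrays with treated RNA in Cy3 (0.25, adjusted p = 0.0779). The adaptor gene Myd88 rose by 1.45 ± 0.21. The LPS receptor went the other way: Tlr4 fell to -1.27, -1.19 and -1.32 (adjusted p = 5.46e-10), and all 3 of its probes were below 0 (-1.55 to -0.51). Its co-receptors Cd14 (0.14 ± 0.15) and Ly96 (0.38 ± 0.51) did not pass the test. Tlr9, a sensor of microbial DNA, rose by 1.16 ± 0.37, and the kinase gene Irak1 fell by 0.23 ± 0.072. The Irak1 call was lost without set 2 (-0.19) or set 3 (-0.22). It was also lost on arrays with treated RNA in Cy3 (-0.09) and with only its own sets fitted (adjusted p = 0.154).

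Early transcription factor genes rose in 9 of 18 tested members and fell in 2 (median 0.91). Myc stood at 4.16, 3.30 and 3.85 and Egr1 at 2.85, 2.27 and 3.03 in sets 1, 2 and 3. Klf6 (2.37 ± 0.21), the cAMP-responsive modulator Crem (2.33 ± 0.47) and the stress-induced repressor Atf3 (2.22 ± 0.18) rose as well. The AP-1 members Fos (0.16 ± 0.11) and Jun (-0.20 ± 0.095) did not pass the test at this time, while Fosl1 rose by 1.32 ± 0.12. Both falls were Krüppel-like factors linked to macrophage quiescence: Klf2 stood at -2.09, -1.74 and -1.25 and Klf4 at -1.24, -0.85 and -1.67. MAP kinase and G protein feedback genes rose in 7 of 14 tested members and fell in 1 (median 0.61). They were led by Zfp36 (3.27 ± 0.36), which shortens the life of Tnf mRNA, and the phosphatase gene Dusp1 (2.79 ± 0.51), and Rgs14 fell by 0.44 ± 0.31. Rgs14 missed the threshold without set 1 (-0.33) or set 3 (-0.37).

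The 2 arms of antigen presentation differed in their counts. MHC class I and peptide supply genes rose in 11 of 13 tested members (median 0.92) and MHC class II genes in 2 of 7 (median 0.08). No member of either list fell. Of all genes 15.2% rose and 18.8% fell, and with 7 members the class II count is close to the share of rises. The peptide transporter genes Tap1 and Tap2 averaged 2.73 ± 0.26 and 1.75 ± 0.50. The immunoproteasome subunits Psmb10, Psmb8 and Psmb9 averaged 1.59 ± 0.16, 0.99 ± 0.21 and 0.80 ± 0.26, and the class I light chain B2m 0.92 ± 0.12. The class I heavy chain H2-K1 rose by 0.65 ± 0.065. Among class II genes the invariant chain Cd74 rose by 0.68 ± 0.099 and the protease gene Ctss by 0.19 ± 0.085. The Ctss call was lost without set 1 (0.14) or set 3 (0.21). It was also lost on arrays with treated RNA in Cy5 (0.10) and with only its own sets fitted (adjusted p = 0.249). Ciita, the master regulator of class II transcription, did not pass the test (0.11 ± 0.14), nor did H2-Ab1 (0.08 ± 0.28). Co-stimulatory and adhesion genes rose in 7 of 10 tested members and none fell (median 1.59). The PD-L1 gene Cd274, a brake on T cells, stood at 4.02, 3.88 and 4.48. Cd83, a marker of mature antigen-presenting cells, stood at 4.03, 3.59 and 3.78. The integrin gene Itgal stood at 2.36, 2.68 and 2.38. The CD28 ligands were more variable, with Cd80 at 1.33, 1.65 and 2.52 and Cd86 at 2.02, 0.74 and 1.25.

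Cell death and survival genes rose in 14 of 17 tested members and none fell (median 1.59). LPS alone also raised 14 of the 17 and lowered 1 (median 0.80). Genes of both outcomes were among them. The death receptor gene Fas stood at 4.48, 3.38 and 4.00, Daxx at 3.24, 2.81 and 2.98 and Pmaip1, the BH3-only protein NOXA, at 2.77, 2.79 and 2.20. The inhibitor of caspase 8 activation Cflar averaged 2.42 ± 0.11 and the inhibitor of apoptosis Birc3 1.69 ± 0.47. The inflammatory caspases Casp1 and Casp4, which start pyroptosis, averaged 2.14 ± 0.32 and 2.09 ± 0.28.

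Macrophage receptor and identity genes rose in 15 of 23 tested members and fell in 4 (median 0.37). Ltb4r1, the leukotriene B4 receptor, stood at 2.77, 2.22 and 3.53, and C3ar1, the complement C3a receptor, at 2.34, 2.02 and 1.01. The Fc gamma receptor genes moved in both directions. The activating receptors Fcgr1 and Fcgr3 rose by 1.73 ± 0.06 and 1.45 ± 0.22, and the inhibitory receptor Fcgr2b fell by 0.80 ± 0.19. The scavenger receptor gene Msr1 rose by 1.58 ± 0.43 and the macrophage surface marker Adgre1 by 0.84 ± 0.38. The falls included Cx3cr1, the fractalkine receptor, at -2.65, -2.69 and -1.47, and Csf1r, the receptor for the growth factor that keeps macrophages alive, with a mean of -1.29 ± 0.25. Trem2, a receptor for lipids and apoptotic cells, fell by 0.60 ± 0.067. With RNA of whole cultures, fewer cells of a state and less RNA per cell cannot be told apart.

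The 15 largest falls were led by transcription regulators and by genes of cell division and metabolism. Pax6, a developmental transcription factor, stood at -3.15, -2.26 and -2.97 in sets 1, 2 and 3 and was the deepest fall of a named gene (mean -2.79 ± 0.47, adjusted p = 1.54e-14). Lyl1, a basic helix-loop-helix factor of blood cells, stood at -2.79, -2.47 and -1.96, and Zfpm1, a cofactor of GATA factors, at -2.54, -1.78 and -1.64. Set 3 was the least affected of the sets for Lyl1, Zfpm1 and Cx3cr1, while for Esco2 it was the most affected. Esco2, which acetylates cohesin in S phase, stood at -2.11, -1.81 and -2.68, and Fbxo5, an inhibitor of the anaphase-promoting complex, at -2.56, -2.03 and -1.96. Among metabolic genes Lpin1, a phosphatidate phosphatase, averaged -2.29 ± 0.83, the coenzyme A synthesis gene Pank1 -1.97 ± 0.24 and the thiamine transporter Slc19a2 -1.96 ± 0.22. Gclc, the rate-limiting enzyme of glutathione synthesis, averaged -1.88 ± 0.095, and Ddit4, an inhibitor of mTORC1, -1.91 ± 0.61. The remaining falls were Kifc3 (-2.17 ± 0.51), Angpt2 (-2.06 ± 0.22), the linker histone gene H1f2 (-1.87 ± 0.31) and the gamma-secretase subunit Aph1b (-1.84 ± 0.12). The 2 probes of Angpt2 stood at -3.19 and -0.92.

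Cell cycle and DNA replication genes fell in 23 of 27 tested members and none rose, with a median of -0.80. These falls include Cdk4 (-0.23 ± 0.073), with 3 of 6 arrays above 0. They also include Ccne1 (-0.56 ± 0.082), with 2 of 6 arrays above 0 and probes at -1.03 and -0.09. Gmnn, which blocks re-replication, stood at -1.67, -1.02 and -1.80, and the cyclin gene Ccna2 at -1.67, -1.71 and -0.96. Rrm2, the ribonucleotide reductase subunit that limits deoxynucleotide supply, stood at -1.48, -1.28 and -1.55. The replication licensing genes Cdc6 (-1.18 ± 0.54) and Mcm6 (-0.95 ± 0.13), the mitotic genes Cdc20 (-1.35 ± 0.50), Bub1 (-0.93 ± 0.18) and Cdk1 (-0.94 ± 0.35), the G1/S regulators E2f1 (-0.77 ± 0.19) and Ccne2 (-0.93 ± 0.24) and the proliferation marker Mki67 (-1.12 ± 0.27) were all lower. Cdc45, Ccnd1, Mcm3 and Cdc25a, between -0.22 and -0.02, did not pass the test. In the same genes LPS alone and IFNG alone gave medians of -0.60 and -0.34. Of the 27 genes 1 was lower than with LPS alone and 0 were higher (median difference -0.12).

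**Figure D2:**
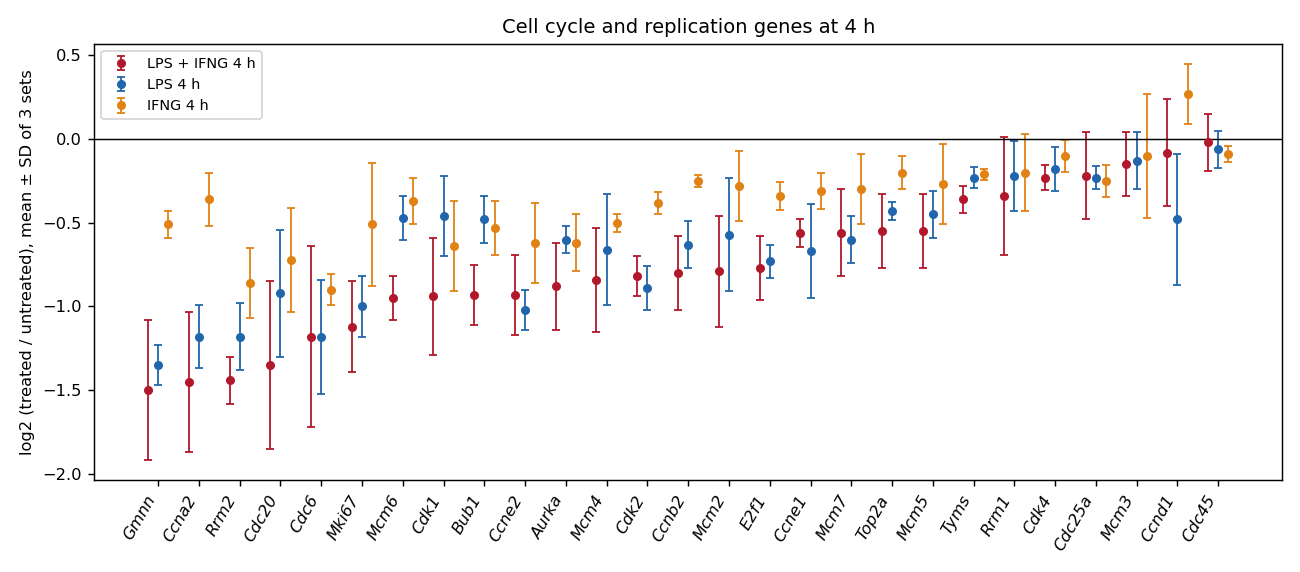
Log2 ratio of treated to untreated cells (mean ± SD of 3 sets) for the 27 tested cell cycle and replication genes after 4 h of LPS plus IFNG, LPS alone or IFNG alone. With LPS plus IFNG all means lie below 0, from -1.50 for Gmnn to -0.02 for Cdc45.

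Metabolic lists changed in part. Of the sterol and lipid genes 2 of 14 rose and 6 fell (median -0.08), against 15.2% and 18.8% of all genes. The falls were Sqle (-1.29 ± 0.50) and Fdft1 (-0.37 ± 0.25) of cholesterol synthesis, Scd1 (-1.28 ± 0.36) and Fasn (-1.01 ± 0.25) of fatty acid synthesis, and the regulators Srebf1 (-0.74 ± 0.20) and Pparg (-0.57 ± 0.18). Fdft1 missed the threshold without set 1 (-0.25) and on arrays with treated RNA in Cy3 (-0.27). Idi1, also of cholesterol synthesis, rose by 0.44 ± 0.088. Of the glycolysis and hypoxia genes 3 of 12 rose and 1 fell (median 0.10). The transcription factor Hif1a rose by 0.91 ± 0.064, the phosphofructokinase gene Pfkp by 1.04 ± 0.14 and the glucose transporter gene Slc2a1 by 0.89 ± 0.29 over 2 sets, and Pfkfb3 fell by 0.77 ± 0.23. Ldha (0.10 ± 0.073) and Hk2 (0.12 ± 0.47) did not pass the test. In the tricarboxylic acid cycle and respiration 5 of 12 genes fell and none rose (median -0.14). Idh1, at -1.20, -1.75 and -0.68, and Aco1, at -0.75, -0.59 and -0.46, encode the cytosolic isocitrate dehydrogenase and aconitase. The mitochondrial Idh3a fell by 0.57 ± 0.11, Fh1 by 0.30 ± 0.022 and Sdhb by 0.27 ± 0.023. Fh1 missed the threshold with only these sets fitted (adjusted p = 0.0515) and on arrays with treated RNA in Cy3 (-0.15, adjusted p = 0.383). Sdhb missed it without set 1 (-0.28) or set 2 (-0.26), on arrays with treated RNA in Cy3 (-0.14) and with only these sets fitted (adjusted p = 0.0833). Of the iron, heme and antioxidant genes 6 of 17 rose and 2 fell (median 0.11). The iron importer gene Slc11a2 rose by 2.03 ± 0.23 and ceruloplasmin (Cp) by 1.54 ± 0.89. Of 6 housekeeping genes tested, Ywhaz rose by 0.62 ± 0.22 as the mean of probes at 0.11 and 1.13, and the other 5 lay between -0.12 and 0.31 without passing the test.

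**Figure D3:**
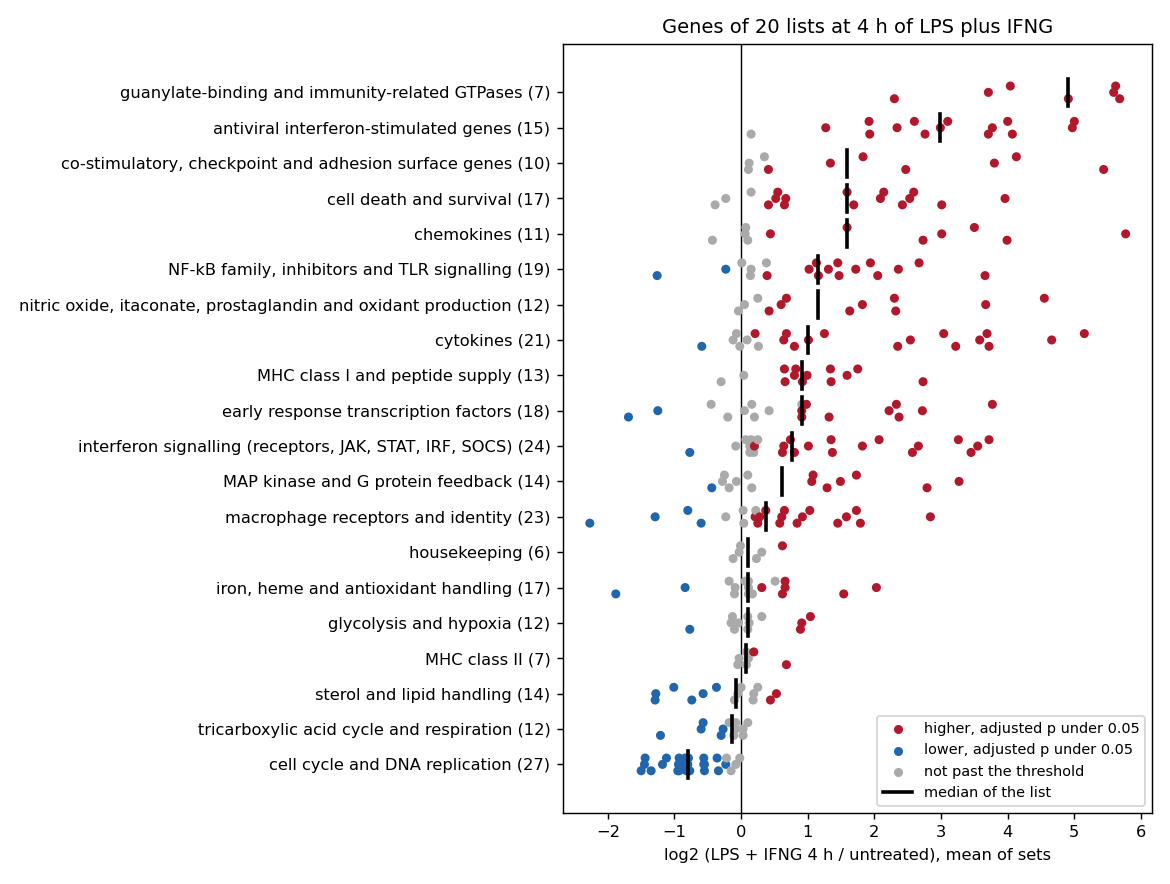
Log2 ratio of LPS plus IFNG at 4 h to untreated cells (mean of sets) for the tested genes of 20 lists, 1 point per gene, with the number tested in brackets and a bar at each list's median. The GTPases have the highest median (4.91) and the cell cycle genes the lowest (-0.80).

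Against LPS alone at 4 h, the joint treatment gave higher values for 302 genes (2.61%) and lower values for 179 (1.54%), with a median difference of -0.016 over all genes. Here and below, a difference between groups is given ± its standard error (SE), and a response ± SD. Cxcl9 differed most: it stood at 5.57 and 5.96 in sets 1 and 3 of the joint treatment, against a mean of 0.49 with LPS alone, a difference of 5.28. Ly6i stood at 4.34, 4.20 and 4.12 with both ligands and at 0.10, 0.32 and 0.08 with LPS alone. Ltb4r1 stood at 2.77, 2.22 and 3.53 with both ligands and at -0.10, -0.39 and 0.14 with LPS alone. The groups did not overlap for these genes, which were picked for their large differences. Such non-overlap, here and below, is no separate support, and its share over all genes was not counted. Fcgr3 moved in opposite directions, at 1.24, 1.69 and 1.43 with both ligands and at -1.52, -1.07 and -1.03 with LPS alone (difference 2.66 ± 0.21 SE, adjusted p = 4.64e-12). Pmaip1 differed by 2.80 ± 0.25, the uridine phosphorylase gene Upp1 by 2.60 ± 0.16, the retinoic acid-binding protein gene Crabp2 by 2.40 ± 0.33, Iigp1 by 2.33 ± 0.30 and Procr by 2.27 ± 0.24. Of the 7 tested GTPases 4 were higher than with LPS alone, and of the 15 antiviral genes 1 was higher (Samhd1, 0.98 ± 0.14) and 1 lower (Trim21, -0.87 ± 0.25). The Trim21 call was lost without set 1 (-0.84) or set 2 (-0.77), and the calls of Trim21 and Samhd1 when these 2 groups were fitted alone (adjusted p of 0.111 and 0.054). Trim21 also missed the threshold on arrays with treated RNA in Cy5 alone (-0.89) and in Cy3 alone (-0.85). Among 24 interferon signalling genes 5 were higher, led by Irf8 (2.25 ± 0.21) and Socs1 (1.86 ± 0.20).

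Genes lower than with LPS alone included receptors and inhibitors. Tlr2, which senses bacterial lipopeptides, stood at 0.31, -0.44 and 0.58 with both ligands and at 2.02, 1.77 and 1.88 with LPS alone (difference -1.74 ± 0.21, adjusted p = 2e-07). Id3, which blocks DNA binding by helix-loop-helix factors, stood at -0.95, -0.81 and -0.43 with both ligands and at 0.74, 1.00 and 0.93 with LPS alone. Both genes, picked for their large differences, had groups that did not overlap, and Id3 had opposite signs. The tyrosine sulfation enzyme Tpst1 averaged 0.09 ± 0.10 with both ligands and 1.68 ± 0.51 with LPS alone. The decoy receptor gene Il13ra2 averaged 0.94 ± 0.22 with both ligands and 2.37 ± 0.14 with LPS alone, and the G protein regulator Rgs16 1.49 ± 0.43 with both ligands and 2.98 ± 0.12 with LPS alone. Frmd4b (difference -1.34 ± 0.19 SE), Ctla2b (difference -1.46 ± 0.28 SE) and the co-stimulatory ligand gene Tnfsf9 (difference -1.20 ± 0.29 SE) completed the 8 largest. Ctla2b also missed the threshold when these 2 groups were fitted alone (adjusted p = 0.137). Without set 1, Ctla2b (-1.32), Il13ra2 (-1.55), Rgs16 (-1.70) and Tnfsf9 (-1.27) missed the threshold (adjusted p of 0.0942, 0.0544, 0.061 and 0.14). Ctla2b and Rgs16 also missed it without set 2 (-1.15 and -1.51), and Tnfsf9 without set 3 (-1.11). The count of 481 differences was 957 with set as a block, 154 without set 1, 317 without set 3 and 164 when these 2 groups were fitted alone.

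Against IFNG alone at 4 h, 686 genes (5.92%) were higher with both ligands and 599 (5.17%) were lower (median difference -0.020 over all genes). Il6 stood at 5.18, 4.54 and 5.71 with both ligands and at 0.10, 0.67 and 0.56 with IFNG alone, a difference of 4.70 ± 0.26 (adjusted p = 4.57e-16). Il1b stood at 4.38, 4.25 and 5.34 with both ligands and at 0.21, 0.15 and 0.22 with IFNG alone. Myc stood at 4.16, 3.30 and 3.85 with both ligands and at -0.15, -0.18 and -0.45 with IFNG alone. No set of either group overlapped the other for these genes, which were picked for their large differences. Saa3 differed by 4.69 ± 0.41, Csf3 by 3.20 ± 0.36, Ifnb1 by 3.18 ± 0.40, Procr by 3.12 ± 0.24 and Marcks, a protein kinase C substrate whose 3 probes responded at 0.76 to 5.0, by 3.17 ± 0.23. Of 15 antiviral genes 12 were higher than with IFNG alone and none lower (median difference 1.16), against 1 of 7 GTPases (Gbp3, 1.02 ± 0.27). The GTPases had a median difference of 0.06, and the Gbp3 call was lost without set 1 (0.84, adjusted p = 0.326). The 13 MHC class I genes had a median difference of 0.14.

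Genes lower than with IFNG alone included several with opposite signs. Slc37a2, a sugar phosphate transporter gene of macrophages, stood at -0.63, -0.86 and -1.39 with both ligands and at 1.25, 1.58 and 1.26 with IFNG alone (difference -2.33 ± 0.16, adjusted p = 1.03e-13). Tsc22d1, a leucine zipper regulator, stood at -1.15, -1.29 and -1.47 with both ligands and at 0.92, 0.23 and 1.21 with IFNG alone. The groups of both genes, picked for their large differences, lay on opposite sides of 0. Also lower with both ligands, by their differences ± SE, were Lpin1 (-1.72 ± 0.31), Klf2 (-1.58 ± 0.32), Lyl1 (-1.57 ± 0.18), Slc19a2 (-1.54 ± 0.17), H1f2 (-1.51 ± 0.23) and Ddit4 (-1.49 ± 0.44). Among 27 cell cycle genes 10 were lower and none higher (median difference -0.33), with differences of -1.09 ± 0.15 for Ccna2 and -0.99 ± 0.19 for Gmnn. Without set 1, Klf2 (-1.32) and Ddit4 (-1.24) missed the threshold (adjusted p of 0.0782 and 0.356), as Ddit4 did without set 2 (-1.55, adjusted p = 0.0744). The count of 1285 differences was 2181 with set as a block, 422 without set 1 and 772 when these 2 groups were fitted alone. The 2 dye orders of IFNG alone correlated at -0.009 to -0.465 before turning, against -0.424 to -0.784 for the joint treatment.

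Several genes exceeded both single ligands. They are given with their values in each comparison, which share the joint treatment's arrays, and were chosen after their values were seen. Procr averaged 4.17 ± 0.30 with both ligands, 1.89 ± 0.69 with LPS alone and 1.05 ± 0.42 with IFNG alone. Crabp2 averaged 2.51 ± 0.61 with both ligands, 0.11 ± 0.12 with LPS alone and 0.02 ± 0.081 with IFNG alone, and neither single-ligand response passed the test. Upp1 averaged 3.47 ± 0.42 with both ligands, 0.87 ± 0.15 with LPS alone and 1.58 ± 0.14 with IFNG alone. F3 averaged 5.01 ± 0.79 with both ligands, 3.40 ± 0.64 with LPS alone and 3.28 ± 0.26 with IFNG alone. The arginine-recycling enzyme gene Ass1 was 1.06 ± 0.14 above LPS alone and 1.44 ± 0.14 above IFNG alone. Nos2 was 2.11 ± 0.20 above IFNG alone, while its difference from LPS alone, 0.65 ± 0.20, did not pass the test (adjusted p = 0.0544), but passed it with set as a block (adjusted p = 0.0132). The CD28 ligand genes Cd80 and Cd86 were 1.05 ± 0.24 and 0.99 ± 0.26 above LPS alone and 1.53 ± 0.24 and 1.00 ± 0.26 above IFNG alone. On the side of falls, Tlr4 averaged -1.26 ± 0.065 with both ligands, -0.23 ± 0.32 with LPS alone and -0.26 ± 0.093 with IFNG alone, and its differences from LPS alone (-1.02 ± 0.19) and from IFNG alone (adjusted p = 0.000242) both passed the test. Without set 1 the calls of Tlr4 (-0.99 and -0.95), of F3 against LPS alone (1.67) and of Cd86 (0.70 against LPS alone and 0.59 against IFNG alone) were lost. Without set 3 those of Cd80 (0.66) and Cd86 (1.14) against LPS alone were lost. With only the 2 groups of a comparison fitted, F3, Cd80 and Cd86 missed the threshold against LPS alone (adjusted p of 0.113, 0.178 and 0.189), as Cd86 did against IFNG alone (adjusted p = 0.0755). On arrays with treated RNA in Cy5, Cd86 missed it against LPS alone (0.63) and against IFNG alone (0.66).

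**Figure D4:**
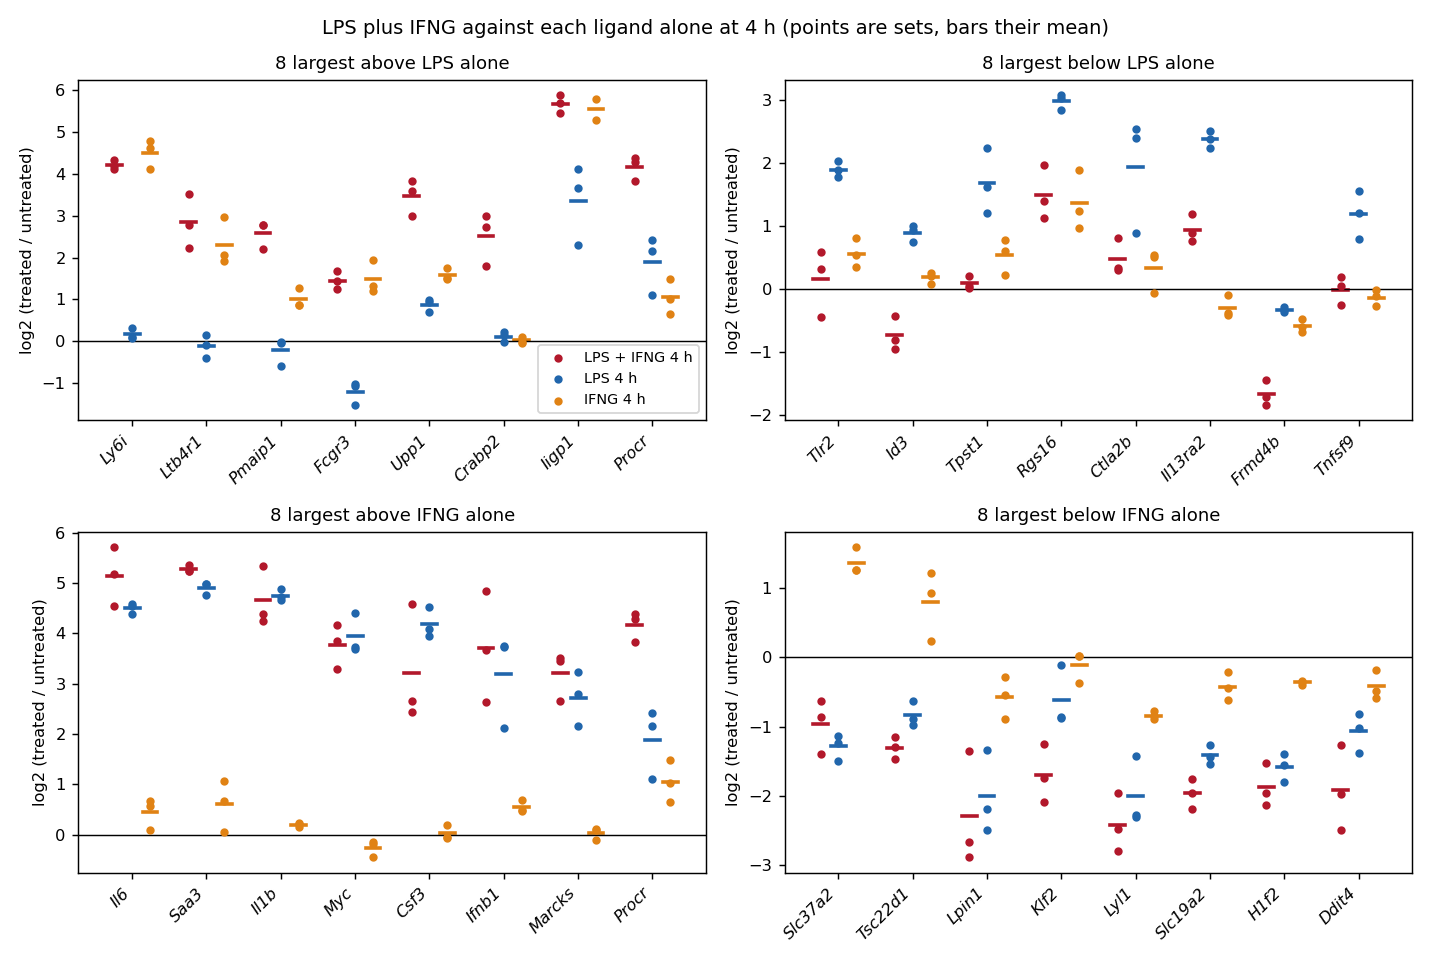
Log2 ratio of treated to untreated cells at 4 h in each set (points) with the mean of the sets (bars), for LPS plus IFNG, LPS alone and IFNG alone. Among genes with 1 sign of difference in all 3 sets, the panels hold the 8 furthest above and below LPS alone (Ly6i at 4.06 and Tlr2 at -1.74 lead) and the 8 furthest above and below IFNG alone (Il6 at 4.70 and Slc37a2 at -2.33 lead).

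Between 2 and 4 h of joint treatment, the ratio of 466 genes (4.02%) moved upward and that of 387 (3.34%) downward. The median difference over all genes was -0.023. Each time had its own untreated cells, labelled with that time. A change in treated cells between the times therefore cannot be told apart from a change in untreated cells. Among genes higher at 4 h, Lhx2, a LIM homeobox factor, averaged 0.15 ± 0.077 at 1 h and stood at 0.42, 0.52 and -0.20 at 2 h and at 3.41, 2.55 and 2.66 at 4 h (4 h minus 2 h 2.62 ± 0.17, adjusted p = 1.95e-13). Upp1 averaged 0.26 ± 0.023 at 1 h, 1.22 ± 0.36 at 2 h and 3.47 ± 0.42 at 4 h. Procr averaged 0.09 ± 0.073 at 1 h, 1.76 ± 0.67 at 2 h and 4.17 ± 0.30 at 4 h. These 3 genes were near 0 at 1 h. Slfn1, a Schlafen family gene (difference 2.44 ± 0.35), complement factor B (Cfb, 2.13 ± 0.25), Il6 (2.11 ± 0.26), Saa3 (2.10 ± 0.41) and Ms4a4c (2.10 ± 0.31) completed the 8 largest. Nos2 averaged 0.29 at 1 h, 2.28 at 2 h and 3.67 at 4 h, and the last step was 1.39 ± 0.20 (adjusted p = 7.3e-06). Of 15 antiviral genes 8 were higher at 4 h than at 2 h and none lower (median difference 0.77). The Fc receptor gene Fcgr1 was 1.33 ± 0.15 higher at 4 h.

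Among genes lower at 4 h than at 2 h, the kinase gene Sgk1 stood at -0.24, -0.55 and 2.16 at 4 h, against 2.58, 2.47 and 2.84 at 2 h. At 4 h its set 3 stood apart from sets 1 and 2, and the 2 times did not overlap in this gene, picked for its large difference. Gadd45a, a growth arrest gene, averaged 1.04 ± 0.41 at 1 h, 1.52 ± 0.34 at 2 h and -0.39 ± 0.14 at 4 h (4 h minus 2 h -1.91 ± 0.28, adjusted p = 7.32e-06). Tsc22d1 averaged 0.51 ± 0.045 at 1 h, 0.74 ± 0.51 at 2 h and -1.31 ± 0.16 at 4 h. Its 4 h sets were all below 0 and its 2 h sets all above. Also lower, by their differences ± SE, were Phlda1 (-2.04 ± 0.51), the repressor Bcl6b (-1.89 ± 0.43) and the growth factor gene Pdgfb (-1.61 ± 0.29). So were nocturnin (Noct, -1.56 ± 0.18) and the endoplasmic reticulum stress gene Herpud1 (-1.53 ± 0.36). Of the early response transcription factors 5 of 18 were lower and 1 was higher (median difference -0.48), of the NF-kB and Toll-like receptor genes 5 of 19 were lower and 1 was higher (median difference -0.20), and of the cell cycle genes 8 of 27 were lower (median difference -0.31). The differences of Tnf (-0.62 ± 0.44) and Irf1 (-0.36 ± 0.26) did not pass the threshold. Without set 1, Sgk1 (-1.84), Phlda1 (-1.89), Bcl6b (-1.78), Pdgfb (-1.45) and Herpud1 (-1.33) missed the threshold (adjusted p of 0.0555, 0.219, 0.0702, 0.0712 and 0.224). Phlda1 (-2.08) and Bcl6b (-1.77) also missed it without set 2. The count of 853 differences was 269 without set 1, 447 without set 2 and 196 when the 2 times were fitted alone, where Sgk1, Phlda1, Pdgfb, Herpud1 and Saa3 also missed the threshold.

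**Figure D5:**
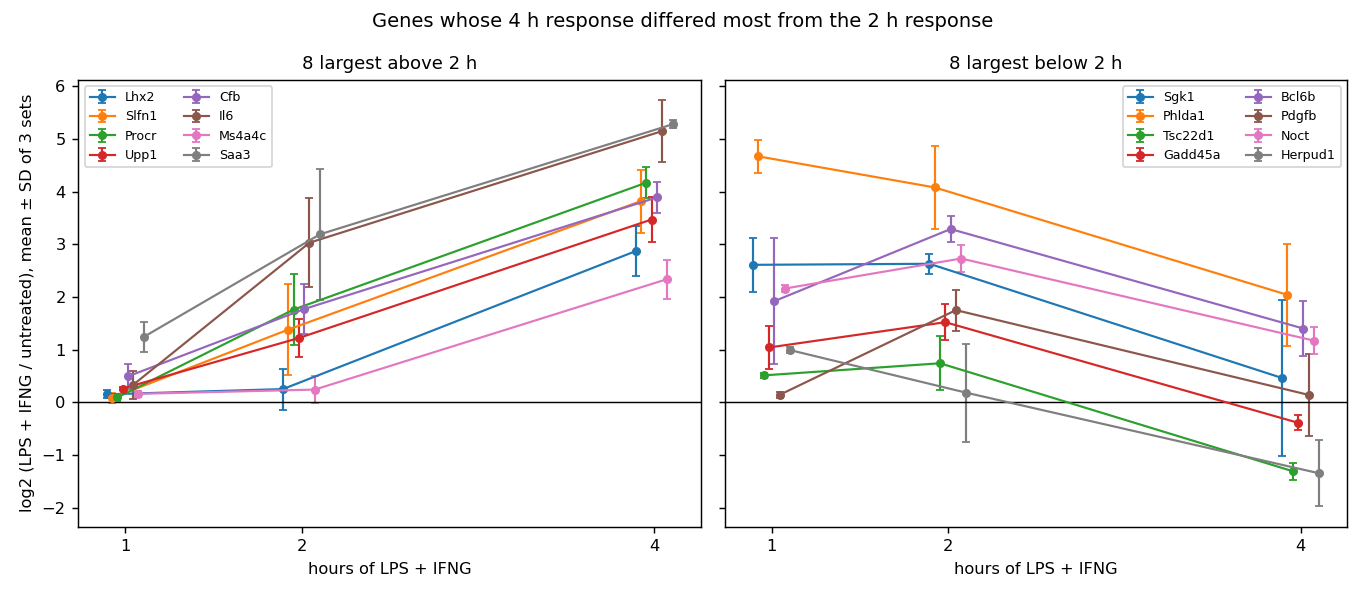
Log2 ratio of LPS plus IFNG to untreated cells at 1, 2 and 4 h (mean ± SD of 3 sets, joined by lines) for the 8 genes furthest above (left) and the 8 furthest below (right) their 2 h value at 4 h. Lhx2 rises between 2 and 4 h, and Sgk1, Gadd45a and Tsc22d1 reach 0.46, -0.39 and -1.31 at 4 h.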

How the data were processed

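RNA of treated and untreated RAW 264.7 cells was compared on two-colour arrays. The deposited values are log2 ratios of Cy5 to Cy3, per the labels, and the scale was read from the values, whose largest, 6.643856 (14 values), is log2 of 100. Scanner, background correction and normalization are not given in the sources used here. Of the table's sample columns 0 were left unused. The dye labels gave the sign, an exact 0 was taken as missing, and both dye orders of a set had to have a value and were averaged. Probes with at least 2 set values in each of the 16 groups were kept (13698 of 16281), and probes of a gene were averaged. Probe names came from a 2016 platform annotation and RefSeq symbols of GRCm38.p6. Array values give no counts, so depth is unknown and the 3 sets limit the precision.

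One limma 3.58.1 model (R 4.3.3) was fitted to the set values of all 16 groups, with empirical Bayes moderation and Benjamini-Hochberg adjustment over 11593 genes, and was tested on simulated data. Each response was tested against 0, and LPS plus IFNG at 4 h against LPS at 4 h, IFNG at 4 h and LPS plus IFNG at 2 h. Tables and plots were made with Python 3.11.15, pandas 2.3.3, numpy 2.4.6 and matplotlib 3.10.9. Set numbers pair the groups: same-numbered sets deviated together, with correlations of 0.463, 0.647 and 0.554 against LPS, 0.258, 0.63 and 0.386 against IFNG and 0.425, 0.696 and 0.346 against 2 h for sets 1, 2 and 3. Named are the 15 largest rises and falls with a value and 1 sign on all 6 arrays, the 8 largest differences each way with 1 sign in all 3 sets, direction-check genes and examples from 20 gene lists. Members and lists were chosen with earlier results of these data known. Alternatives changed the treatment of zeros, the groups fitted, centring, probes, missing values, dye order, moderation, thresholds, sets and the block.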

Additional observations from a re-analysis of the deposited data

Results flagged for a closer look

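Joint treatment differed from LPS alone in 481 genes, from IFNG alone in 1285 genes and from its own 2 h time point in 853 genes, each by limma's test of the difference at an adjusted p under 0.05. Of 182 genes checked on the 6 arrays of LPS plus IFNG at 4 h, 5 had 1 array far from the other arrays, and chance marks about 1 in 20 groups. Arg2 stood at 1.48 on the set 2 array with treated RNA in Cy3, against 0.31 to 0.72 on the others. Itgal stood at 2.89 on that array, against 2.36 to 2.46, and Mx1 at 3.14, against 3.70 to 4.03. Il12b stood at -0.91 on the set 2 array with treated RNA in Cy5, against 0.12 to 0.40. Ctss stood at 0.49 on the set 1 array with treated RNA in Cy3, against 0.05 to 0.21.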

How the results depend on the processing

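The count of 3937 changed genes was 778 with a 2-fold minimum added, ran from 2744 to 3875 when 1 set was left out, and stayed within 1.5 times under the other alternatives. For the differences from LPS alone, IFNG alone and 2 h, the counts of 481, 1285 and 853 were 294, 826 and 482 at an adjusted p under 0.01. With a 2-fold minimum they were 121, 303 and 160, and with only the 2 groups of the comparison fitted 164, 772 and 196. Arrays with treated RNA in Cy5 alone gave 296, 840 and 497, and arrays with it in Cy3 alone gave 285 and 497 for LPS alone and 2 h. Leaving out 1 set gave 154 to 329, 422 to 970 and 269 to 617. With set as a replicate block, the counts were 957, 2181 and 1065. The block fits against the single ligands left out the shortest LPS treatment of the series. The block fit against 2 h held only its 2 groups, so these counts do not isolate the effect of pairing. The cause of these shifts was not tested beyond the stricter thresholds and smaller sample numbers that define some of them. Refits of named genes include those of genes that had not passed the threshold. Among them, 22 of 1816 responses, 23 of 296 differences from LPS alone, 8 of 297 from IFNG alone and 12 of 220 from 2 h missed the threshold that the value had passed. No value that had passed it changed direction, and changes of sign in other values were not counted. Calls were gained in 7 responses and 1 difference from LPS alone. On arrays with treated RNA in Cy5 alone, Cd14 (0.70), Ccl17 (0.56), Cdc25a (-0.53), Jun (-0.54) and Cxcl14 (-0.63) passed the test, as Ccl9 (0.38) did on those with it in Cy3 and Cxcl14 with only its own sets fitted (adjusted p = 0.0111). With 3 sets a group and ratios only, absolute levels, probes without a value and small differences are out of reach.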

Other observations

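Several interferon-induced and inflammatory genes had values on the arrays of LPS plus IFNG at 4 h but lacked values there or in other groups of the series and were not tested. Gbp2b, a guanylate-binding protein gene, lay between 4.74 and 5.73 on all 6 arrays. Usp18, which removes the ISG15 modifier, lay between 2.69 and 3.34, and the RNA-editing enzyme gene Adar between 1.50 and 2.63. Gbp2 had values on 2 arrays, 5.37 and 6.64, of which the second is the table's largest value and a lower bound, and the RNA sensor gene Ifih1 on 2 arrays, 4.37 and 3.92. Rsad2, which encodes the antiviral enzyme viperin, had 1 value, 5.16. Nfkbia, the classical NF-kB inhibitor, lay between 1.24 and 2.33 on 5 arrays. A probe of the neutrophil attractant Cxcl2 lay between 3.53 and 4.47 on 4 arrays, while its other probe had a single value of -1.71.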
